A study of Mus musculus with 1 sample.

Results

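The interferon-stimulated genes described here are a panel of 43 mouse genes, chosen by name, of the 25661 genes in a single-cell count table of bone marrow progenitors. All 43 had counts. Their levels were read in lineage gates and in cells grouped by hashtag. The table came from 1 library, made with the BD Rhapsody microwell system and TAS-Seq amplification, a 3′ mRNA method. Per the labels, the pool held sorted bone marrow cells of a naive mouse and of a mouse injected with LPS (lipopolysaccharide, the endotoxin of Gram-negative bacteria). Both mice gave cKit+Lin- progenitors and GMP-MoPs, and cMoPs were taken without LPS only; both names stand for monocyte progenitors. The 5 groups are the barcoded PE-streptavidin tags A961, A962, A963, A964 and A965, and all of them share the tissue, the capture and the sequencing. The labels give no strain, age, dose or time, and do not state to which mouse and sort each tag belongs. No tag is given a treatment below.

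After filtering the large tags A963 and A965 had 4716 and 5567 cells and the small tags A961, A962 and A964 had 68, 104 and 73, 10528 in all, with median counts per cell of 20430.5 in A963 and 25826.5 to 27801 in the others. Loading was 100 cells each for A961, A962 and A964 and 15000 each for A963 and A965, so A962 was recovered in more cells than were loaded. No tag had a replicate. No test between tags was possible, and each interval given is an exact 95% interval for counting error alone. Xist, the RNA of the inactive X chromosome, was at 611 CPM (the share of a tag's or gate's summed counts, scaled per 1000000) in A963 and 11.8 CPM in A965, while Y-linked genes summed to 6.46 and 79.5 CPM. In A961, A962 and A964 Xist was at 486, 409 and 59.7 CPM and the Y-linked sum at 39.2, 21.0 and 86.0 CPM, so A961 and A962 had more Xist and less of the Y-linked sum than A964, and each had a Y-linked sum above that of A963. Mouse, treatment and sex therefore cannot be told apart between A963 and A965, and sex-linked genes also differed among the small tags. No cell barcode was shared between tags. The stem cell factor receptor Kit, which the sort used, ran from 2.94 CPM in the monocyte gate to 108 CPM in the stem gate.

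Interferons are secreted proteins that warn cells of infection. Type I interferons act through the kinases Jak1 and Tyk2 and the transcription factors Stat2 and Irf9 on a promoter element of repeated GAAA, whereas interferon gamma acts on an element of the form TTCNNNGAA. The genes so induced sense foreign nucleic acid, block translation, degrade or deplete viral building blocks, or attack the vacuoles of intracellular microbes, and many are also held at a lineage-specific basal level in blood cells.

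RefSeq promoter windows (GRCm38.p6) were found for 32 of the 43 members. GAAA followed by any 2 bases and GAAA again, searched on both strands (on the other it reads TTTC, any 2 bases, TTTC) in the 250 bases before the start, were present for 14 of the 32 (43.8%) and for 936 of 27025 genes (3.46%). TTCNNNGAA, which reads the same on both strands, was present for 7 of the 32 (21.9%) and for 8.13% of all genes. The windows below are those of members on which the results turn. The first 4 belong to genes whose counts lay in few cells or differed by lineage. The last 2 belong to the members with the widest log2 ratio between A963 and A965 in each direction, with 10 CPM added to both. Capitals mark the repeated GAAA motif on either strand, and overlapping matches merge.
Isg15: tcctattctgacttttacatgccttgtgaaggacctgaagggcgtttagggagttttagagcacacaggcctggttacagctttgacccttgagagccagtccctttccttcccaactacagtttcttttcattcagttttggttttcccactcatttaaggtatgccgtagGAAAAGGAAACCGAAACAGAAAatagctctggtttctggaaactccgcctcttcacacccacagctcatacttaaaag
Ifit1: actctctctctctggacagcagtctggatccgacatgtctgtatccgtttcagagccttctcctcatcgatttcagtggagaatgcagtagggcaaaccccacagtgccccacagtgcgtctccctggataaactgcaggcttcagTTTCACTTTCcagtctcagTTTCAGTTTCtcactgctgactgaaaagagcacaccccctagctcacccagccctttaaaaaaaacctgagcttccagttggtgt
Ifit3: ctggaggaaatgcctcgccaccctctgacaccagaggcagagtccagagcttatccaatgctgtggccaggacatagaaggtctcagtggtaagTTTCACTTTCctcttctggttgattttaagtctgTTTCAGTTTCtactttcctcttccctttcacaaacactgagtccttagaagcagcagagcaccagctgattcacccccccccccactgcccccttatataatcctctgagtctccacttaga
Rsad2: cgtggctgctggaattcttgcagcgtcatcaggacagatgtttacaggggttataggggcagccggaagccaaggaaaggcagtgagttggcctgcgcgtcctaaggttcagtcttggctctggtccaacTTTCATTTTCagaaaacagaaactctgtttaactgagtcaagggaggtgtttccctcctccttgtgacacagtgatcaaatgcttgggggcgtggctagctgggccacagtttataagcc
Isg20: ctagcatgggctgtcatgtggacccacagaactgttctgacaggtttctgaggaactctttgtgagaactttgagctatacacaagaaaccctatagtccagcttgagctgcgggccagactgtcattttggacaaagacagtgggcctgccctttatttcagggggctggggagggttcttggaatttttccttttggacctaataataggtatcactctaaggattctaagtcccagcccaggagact
Ifi30: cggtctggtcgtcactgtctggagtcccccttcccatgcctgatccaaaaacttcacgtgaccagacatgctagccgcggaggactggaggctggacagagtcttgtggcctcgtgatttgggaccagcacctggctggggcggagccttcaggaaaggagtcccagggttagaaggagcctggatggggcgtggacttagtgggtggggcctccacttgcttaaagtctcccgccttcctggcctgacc
These windows lie at chr4:156200819-156201068 (minus strand) for Isg15, chr19:34640639-34640888 (plus) for Ifit1, chr19:34583279-34583528 (plus) for Ifit3, chr12:26456453-26456702 (minus) for Rsad2, chr7:78913174-78913423 (plus, the first of 3 starts) for Isg20 and chr8:70766664-70766913 (minus) for Ifi30. Isg15 had 3 matches, between 66 and 78 bases before the start. Ifit1 and Ifit3 had 2 each, and Rsad2 had 1, at 120 bases. Neither Isg20, at any of its 3 starts, nor Ifi30 had the repeated GAAA motif in the window. TTCNNNGAA was in 1 of the 3 Isg20 windows and not in the windows of the other 5 genes. A match is a description of the letters, not of binding.

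Cells were placed in 15 gates by scores over fixed marker genes, none of which is a member. The gates held from 104 cells (mature B or plasma) to 2659 (neutrophil), 1451 cells (13.8%) entered no gate, and 1414 cells (13.4%) lay within 0.1 of a limit. Each gate had at least 3 of its own markers among its 10 leading genes, which follows from the gating and does not check gate identity. Markers of other gates were also among the 10 in the eosinophil (2), plasmacytoid DC (1) and T or NK (1) gates.

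The members together were lowest in neutrophil-gated cells and highest in conventional dendritic cells (DC) and monocytes. Their summed level was 481 CPM (475 to 486) in the neutrophil gate and 719.5 in granulocyte-monocyte progenitors (GMP). It was 1092 in erythroid cells, 1336 in lymphoid progenitors, 1415 in stem cells and 1765 in plasmacytoid DC. It reached 2430.2 (2415 to 2445) in monocytes, 2651 in nonclassical monocytes and 2912 (2869 to 2957) in conventional DC. Conventional DC thus stood 6.06-fold above neutrophils. The marker genes of all gates together took 36.3% of all counts in neutrophil-gated cells, against 1.61 to 21.2% in the other 14 gates. With marker genes left out of the totals, an alternative chosen after seeing the data, the sums were 755 CPM in neutrophils, 783 in GMP and 3028 in conventional DC, a ratio of 4.01. Neutrophils stayed lowest of the 15 gates, with GMP next. The levels of single members below keep marker genes in the total.

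A large part of that order came from Ifi30, a lysosomal thiol reductase used in antigen processing, and from Ifi27l2a, a small hydrophobic protein of the ISG12 family. Ifi30 alone was 33.8% of the sum in monocytes and 2.06% in stem cells. Without these 2 genes the sums were 1267 CPM in monocytes, 1336 in stem cells, 1576 in conventional DC, 1734 in nonclassical monocytes and 429 in neutrophils. Stem cells then stood above monocytes, and neutrophils stayed lowest of the 15 gates.

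**Figure D1:**
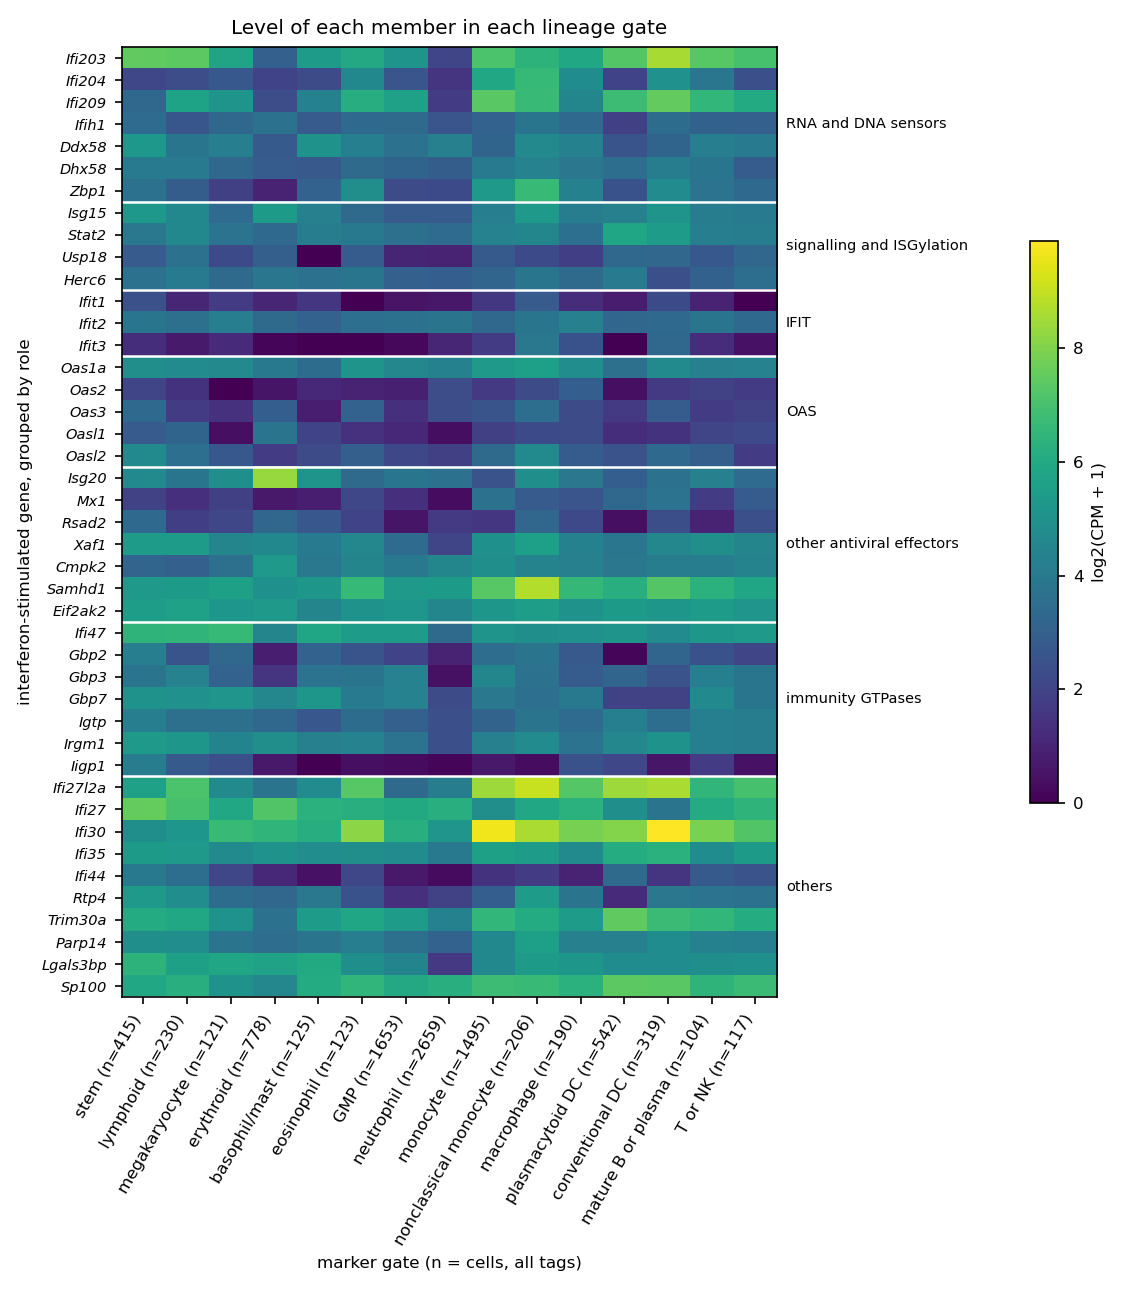
Level of each of the 43 members (rows, grouped by role) in each of the 15 lineage gates (columns, with cells per gate), as log2(CPM + 1) of counts summed over all tags. Read along a row: Isg20 is bright in the erythroid column alone, Ifi27 is brightest in stem cells, and the neutrophil column is dark for Ifi203, Ifi209, Gbp3 and Lgals3bp.

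Members did not share 1 lineage pattern. Of the 43, 13 were highest in nonclassical monocytes, 9 in stem cells, 5 in conventional DC, 4 in erythroid cells and 4 in plasmacytoid DC. The neutrophil gate was the lowest for 15. The neighbouring gates in each order often had overlapping intervals, so only wide differences are described. Gates also pool the tags in unequal shares, so the order within a tag can differ. The erythroid gate held 610 A963 and 157 A965 cells, and the nonclassical monocyte gate 42 and 158.

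Among the sensors of nucleic acid, the PYHIN genes and Zbp1 were the most uneven. Ifi203, a PYHIN family protein, was at 379 CPM in conventional DC, 174 in stem cells, 136 in monocytes and 3.16 in neutrophils, a 120-fold span (103 to 140). Its relative Ifi209 was at 183 CPM in conventional DC and 162 in monocytes, against 8.96 in stem cells and 2.38 in neutrophils. Ifi204, also a PYHIN gene, was at 97.7 CPM in nonclassical monocytes, 59.9 in monocytes and 1.82 in neutrophils. Stem cells therefore carried Ifi203 at a level near that of plasmacytoid DC (149 CPM) while Ifi209 and Ifi204 (3.35 CPM) were low there. Zbp1, a sensor of Z-form nucleic acid that can trigger cell death, was at 100.3 CPM in nonclassical monocytes, 38.4 in monocytes and 0.991 in erythroid cells, a 101-fold span (71.2 to 148). The cytosolic RNA sensors had another order. Ddx58, which encodes RIG-I, was highest in stem cells at 37.4 CPM and lowest in plasmacytoid DC at 5.0, while Ifih1 (MDA5) stayed between 2.61 and 13.4 CPM and Dhx58 (LGP2) between 5.77 and 19.9.

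In the signalling group, Stat2 was highest in plasmacytoid DC at 56.6 CPM, followed by conventional DC at 41.6, and was at 9.33 in erythroid cells (6.06-fold, 5.26 to 7.0). Plasmacytoid DC are known as strong producers of type I interferon. Isg15, a ubiquitin-like modifier, was at 41.0 CPM in erythroid cells, 38.2 in nonclassical monocytes, 37.0 in stem cells and 33.5 in conventional DC. It was at 6.08 in neutrophils. The erythroid lead held only with tags pooled. Within A965 Isg15 was at 21.4 CPM in erythroid cells and 31.0 in stem cells, and within A963 at 46.2 and 43.9. Within A963 conventional DC were slightly above erythroid cells, as given below. The Isg15 isopeptidase Usp18 and the Isg15 ligase Herc6 stayed at or under 11.9 and 15.3 CPM in each gate.

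By the ratio of the highest gate to the next, Isg20 stood apart most of the 43. Isg20, a 3′ to 5′ RNA exonuclease, was at 325 CPM in erythroid cells, 33.9 in basophil or mast cells, the next gate, and 4.80 in monocytes, the lowest (67.7-fold, 58.9 to 78.1). When each cell was thinned to 8800 counts, 83.2% of erythroid cells and 3.48% of monocytes carried an Isg20 count. Median depths before thinning were 41797 and 25345 counts in these gates. Samhd1, which depletes the nucleotides that viruses copy from, was at 424 CPM in nonclassical monocytes, 160.0 in monocytes, 149 in conventional DC and 30.0 in erythroid cells. Eif2ak2, the double-stranded RNA kinase PKR, was the most even of the 43, from 21.6 to 49.6 CPM.

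Within the OAS family, whose enzymes make the 2-5A signal for RNA decay, Oas1a was at 46.7 CPM in nonclassical monocytes and 10.4 in basophil or mast cells. Oasl2 was at 25.8 CPM in both stem cells and nonclassical monocytes and at 2.36 in T or NK cells. Of the IFIT genes, which bind viral RNA, Ifit2 was even at 7.70 to 18.9 CPM, and Ifit3 and Ifit1 reached at most 14.4 and 6.19 CPM, both in nonclassical monocytes. These 2 genes had 360 and 332 counts over all cells, and 1 cell of that gate alone held 22 Ifit3 counts.

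Of the 7 immunity GTPases, 3 were highest in stem cells. Ifi47 was at 97.3 CPM in megakaryocytic cells, 86.1 in lymphoid progenitors, 85.4 in stem cells and 9.63 in neutrophils, and Irgm1 was at 39.8 in stem cells and 4.31 in neutrophils. Gbp2 (17.9 CPM) and Iigp1 (17.2 CPM) were also highest in stem cells. Gbp3 differed, with 22.3 CPM in monocytes and 0.344 in neutrophils, as did Gbp7, highest in basophil or mast cells at 36.6, and Igtp, at 18.1 in plasmacytoid DC.

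Of the remaining members, Ifi27 and its relative Ifi27l2a differed in the gates where each was highest. Both were high in lymphoid progenitors, Ifi27 at 91.8 CPM in A963 and 157 in A965, and Ifi27l2a at 135 and 132. Ifi27 was at 187 CPM in stem cells, 145 in erythroid cells and 13.1 in conventional DC, whereas Ifi27l2a was at 529 CPM in nonclassical monocytes, 397 in conventional DC, 49.8 in stem cells and 9.64 in GMP. Ifi30 was at 939.9 CPM in conventional DC, 821 in monocytes and 29.2 in stem cells. Lgals3bp, a secreted glycoprotein, followed Ifi27 in being highest in stem cells (81.7 CPM), and was at 2.15 in neutrophils. Plasmacytoid DC led for Trim30a, a TRIM family protein, at 176 CPM against 12.0 in erythroid cells, and for Sp100, a nuclear body protein, at 167 against 23.0. Ifi35, which encodes a partner of Nmi, was at 77.9 CPM in conventional DC and 15.1 in neutrophils. The members not yet given stayed under 50 CPM in each gate. Xaf1 and Parp14 were highest in nonclassical monocytes at 46.9 and 47.2 CPM, as were Rtp4 at 41.8 and Oas3 at 10.8, and Cmpk2 led in erythroid cells at 39.2. Rsad2 and Ifi44 were highest in stem cells at 9.44 and 14.9, and Mx1, Oas2 and Oasl1 stayed under 13.1 CPM in each gate.

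Over all cells of each tag, Ifi30 was at 465 CPM in A961, 268 in A962, 145 in A963, 639 in A964 and 270.2 in A965. Ifi27l2a was at 140.4, 79.7, 70.3, 205 and 120.3 CPM in the same order. Isg20 was at 14.2, 39.0, 81.2, 14.8 and 25.3 CPM. A964 was highest and A963 lowest for both Ifi30 and Ifi27l2a, and A963 was highest for Isg20. The lineage mix moved with these values: monocyte-gated cells were 45 of the 68 cells of A961, 36 of 73 in A964, 20 of 104 in A962, 11.9% of A963 and 15.0% of A965, and erythroid-gated cells were 12.9% of A963 and 2.82% of A965.

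A gene was counted as higher or lower where the ratio of CPM, with 10 CPM added to both, passed 1.5-fold. In A965 over A963, 2 of the 43 members were higher and 1 was lower. Over all 25661 genes 0.624% were higher and 0.861% lower, and over the 8025 genes at 10 CPM or more in either tag 1.93% and 2.54% were. Of the members, 27 reached 10 CPM. The median log2 ratio was 0.00 for the members and -0.00 for all genes. The higher members were Ifi30 at 1.86-fold (1.83 to 1.89) and Ifi27l2a at 1.71-fold (1.67 to 1.75), and the lower member was Isg20, at 3.22-fold lower (3.10 to 3.33). With none added, Oas2 at 2.33-fold (1.92 to 2.86) and Zbp1 at 1.96-fold (1.81 to 2.12) were wider upward than Ifi30 but did not pass. No member was wider downward than Isg20.

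When the gates of A963 were weighted to their shares in A965, Isg20 was 1.07-fold lower in A965, against 3.22-fold before. In erythroid-gated cells it was at 324 CPM in A963 and 328 in A965. Ifi30 was 1.66-fold and Ifi27l2a 1.45-fold higher after weighting. Isg15, at 21.2 CPM in A963 and 11.6 in A965 over all cells, went from 1.82-fold to 1.36-fold lower. Oasl1, another OAS family member, went from a ratio of 0.472 to 0.960, and Rsad2, whose product viperin makes a chain-terminating nucleotide, from 0.698 to 1.14. Ifi209 moved the other way, from 0.960 to 0.749.

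Monocyte-gated cells held the most members past 1.5-fold. There, 7 of 43 were higher in A965 (16.3%) and 0 lower, where 0.898% of the 23614 genes with a count were higher and 0.301% lower, and 2.54% and 0.867% of genes at 10 CPM or more, which 29 members reached. The log2 ratio was above 0 for 32 of the 43, and its median was 0.19 for the members and -0.00 for all genes. By role, 2 of 7 sensors, 2 of 5 OAS genes and 3 of the 10 members outside the named families were higher, and none of the signalling genes, IFIT genes, other effectors or GTPases was. The median depth was close, at 24089 counts in the 561 A963 cells and 26203 in the 833 A965 cells.

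Ifi27l2a in monocyte-gated cells was at 167 CPM in A961, 252 in A962, 179 in A963, 329.7 in A964 and 449.9 in A965. A965 was 2.52-fold above A963 (2.41 to 2.63), and the share of cells with a count after thinning was 64.5% against 45.6%. Ifi30 was at 639.6, 865, 517, 1026 and 997 CPM in the same order, so that A964 and A965 overlapped and stood above A961 and A963. The fold in A965 over A963 was 1.93 (1.88 to 1.98), and nearly all cells carried it, 97.8% in A965 after thinning.

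Zbp1 was at 12.9, 33.3, 21.4, 48.9 and 49.3 CPM in A961 to A965, with A964 and A965 overlapping and A961 lowest. A961 and A962 rested on few counts. Their intervals each overlapped that of A963, and the interval of A962 also overlapped those of A964 and A965. Zbp1 was 2.30-fold higher in A965 than in A963 (2.03 to 2.61). Ifi204 was at 35.5, 37.5, 38.7, 37.6 and 74.8 CPM. Only A965 stood apart for it, 1.94-fold above A963 (1.76 to 2.13), and the other 4 tags overlapped.

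Oas1a was at 13.7, 29.2, 22.5, 33.8 and 50.3 CPM, 2.23-fold higher in A965 than in A963 (1.98 to 2.53). Its near-identical neighbour Oas1g, which is no member, was 2.22-fold higher (1.92 to 2.58), and counts of these genes may not be fully separable. Oasl2 was at 0.808, 2.08, 5.26, 0.939 and 13.1 CPM, and Rtp4, a chaperone of membrane receptors, was at 0, 0, 1.5, 0 and 10.7 CPM. For Rtp4 the monocyte-gated cells of A961, A962 and A964 numbered 45, 20 and 36, and a count of 0 allows up to 2.98, 7.68 and 3.47 CPM at the upper interval bound. Rtp4 in A965 over A963 was 7.13-fold (4.61 to 11.6, from 269 and 22 counts). Leaving out its highest cell in each tag gave 11.6-fold, and stricter gates gave 15.8-fold, so 1 cell moved that value by over 1.5 times. Rtp4 overlaps Masp1 on the other strand and Gm45338 on the same strand, and whether counting used strand is not stated.

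**Figure D2:**
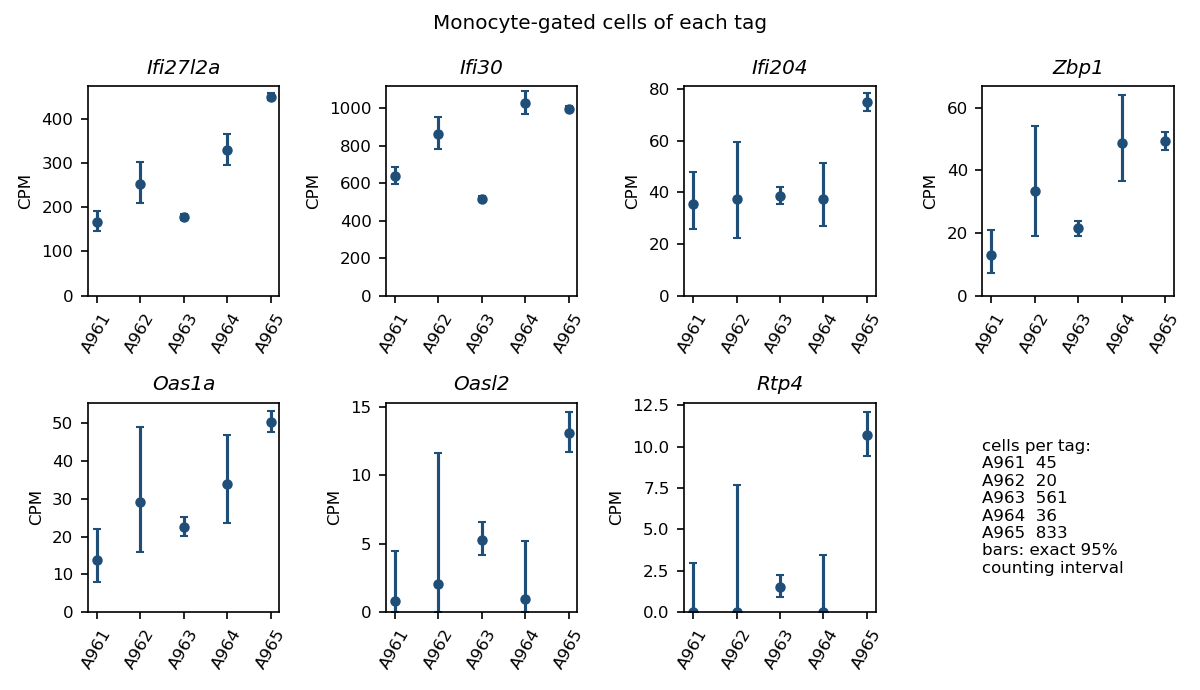
CPM in monocyte-gated cells of each tag for the 7 members past 1.5-fold in A965 over A963 with 10 CPM added. Points are summed counts, bars exact 95% counting intervals, and the cells per tag are printed in the plot. A965 is the highest tag for Ifi27l2a, Ifi204, Oas1a, Oasl2 and Rtp4, though for Oas1a the wide bar of A962 overlaps that of A965. For Ifi30 and Zbp1 the bars of A964 and A965 overlap.

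Marker genes of other cell types also differed between the monocyte-gated cells of the tags. The 10 conventional DC markers summed to 52.2 CPM in A963 and 108 in A965, with 3 higher, 1 lower and none at 0. The 5 nonclassical monocyte markers summed to 4.58 and 12.1 CPM, with none past 1.5-fold and none at 0. The 8 GMP markers summed to 6209 and 5115 CPM, with 1 higher and 2 lower, and the 12 neutrophil markers to 8608 and 8971, with 1 higher and 2 lower. The 8 macrophage markers summed to 8.27 and 11.4, with none past 1.5-fold, and the 11 monocyte markers themselves to 11769 and 11538, with 2 higher. Their part in the result was not tested. Next to the monocyte gate as a whole, Zbp1, Ifi204, Ifi27l2a, Oas1a, Oasl2 and Rtp4 were higher in the nonclassical monocyte gate. Rtp4 was at 41.8 CPM and Oasl2 at 25.8 there, and Oas1a at 46.7 against 39.0 in monocytes. In the conventional DC gate Ifi30 and Ifi27l2a were higher than in the monocyte gate. Under stricter gates the folds of 6 of the 7 lay between 1.90 (Ifi30) and 2.81 (Ifi27l2a), with Rtp4 as above.

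Outside the monocyte gate fewer members passed. Each count below is followed by the same shares, higher and lower, of genes with a count, and then of genes at 10 CPM or more. In stem cells 1 was higher and 0 lower (0.394% and 0.72% of genes, then 0.802% and 1.49%), Gbp2, a guanylate-binding protein, at 10.7 CPM in A963 and 24.4 in A965 (2.29-fold, 1.59 to 3.35). In neutrophils 1 was higher and 0 lower (0.529% and 0.209%, then 1.9% and 0.766%), Oas1a, at 11.9 and 23.1 CPM (1.94-fold, 1.68 to 2.24). Oas1a was thus higher in A965 in neutrophils, monocytes and lymphoid progenitors, and not past 1.5-fold in the other 5 gates. In GMP 1 was higher and 1 lower (0.402% and 0.138%, then 1.22% and 0.42%): Ifi30 was at 36.7 and 85.5 CPM (2.33-fold, 2.15 to 2.52), and Ifi209 at 70.3 and 38.7 (1.82-fold lower, 1.69 to 1.95).

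Lymphoid progenitors, with 114 cells of each tag, had 3 members higher and 2 lower (1.85% and 2.8%, then 3.59% and 5.3%). Ifi27 was at 91.8 CPM in A963 and 157 in A965, Oas1a at 17.8 and 34.3, and Oasl2 at 6.56 and 15.3. Zbp1 was 3.19-fold lower in A965 (1.37 to 8.29), from 22 and 8 counts, and Eif2ak2 1.68-fold lower (1.28 to 2.22). The lists of other cell types moved there as well: 5 of 8 GMP markers were higher in A965, with sums of 989.9 and 1647 CPM and none at 0, and 7 of 13 erythroid markers were lower, with sums of 482 and 241 CPM and Epor and Rhd at 0 in A965. Their part in these values was not tested.

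Isg15 was past 1.5-fold lower in 3 of the 8 gates, more than any other member. In erythroid cells it was the only one past 1.5-fold (0 higher, 1 lower, against 0.286% and 0.0747%, then 0.836% and 0.229%), at 46.2 CPM in A963 and 21.4 in A965 (2.16-fold lower, 1.83 to 2.57). In plasmacytoid DC (1 higher, 1 lower, against 0.516% and 0.773%, then 1.07% and 1.75%) it was at 28.1 and 9.07 CPM, 3.10-fold lower (2.15 to 4.56), from 124 and 39 counts. In conventional DC (2 higher, 2 lower, against 1.44% and 2.04%, then 2.77% and 4.3%) it was at 46.7 and 26.5 CPM, 1.76-fold lower (1.32 to 2.36). In monocytes the level was 12.8 CPM in A963 and 21.0 in A965, a ratio of 1.63 that did not pass with 10 CPM added. The difference between gates was not tested.

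The same gates differed in marker content. In erythroid cells the 13 erythroid markers summed to 50452 CPM in A963 and 35218 in A965, with 4 lower, and the 12 neutrophil markers to 8164 and 11356, with 4 higher. In plasmacytoid DC the neutrophil markers summed to 23909.9 and 12326 CPM, with 7 of 12 lower, and the conventional DC markers to 649 and 1318, with 4 of 10 higher. In conventional DC the erythroid markers summed to 318 and 181 CPM, with 4 of 13 lower, Rhd at 0 in A963 and Epor and Rhd at 0 in A965, and the monocyte markers to 5949.6 and 5001 CPM, with 3 of 11 lower and none at 0. In GMP the neutrophil markers summed to 40212 and 51922 CPM, with 5 of 12 higher and none at 0, and in stem cells to 13613 and 8555, with 5 of 12 lower and none at 0. Neither the erythroid markers in erythroid cells nor the neutrophil markers in erythroid cells and plasmacytoid DC included one at 0, and among the conventional DC markers in plasmacytoid DC Zbtb46 was at 0 in A963 and Batf3 in A965. Their part in the result was not tested. The other member past 1.5-fold in plasmacytoid DC was Ifi30, at 196 and 336 CPM (1.72-fold, 1.58 to 1.87). In conventional DC, Ifi27 rested on 12 and 64 counts (3.03-fold, 1.62 to 6.16) and Dhx58 on 18 and 74 (2.33-fold, 1.38 to 4.15), while Ifi35 was 1.82-fold lower (1.5 to 2.20).

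**Figure D3:**
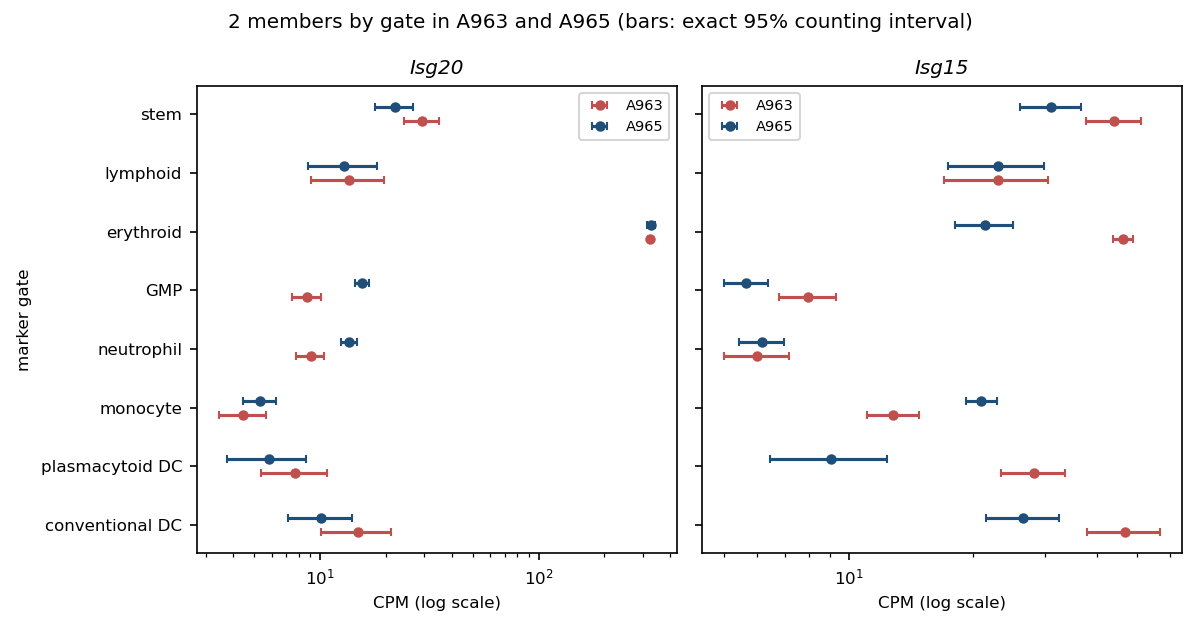
Isg20 and Isg15 in each of the 8 gates with at least 100 cells of both A963 and A965, in CPM on a log scale with exact 95% counting intervals. Isg20 is equally high in the erythroid cells of both tags (324 and 328 CPM), and Isg15 is lower in A965 in erythroid cells, plasmacytoid DC and conventional DC.

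Among the small tags, each compared over all its cells, A961 over A962 had 2 members higher and 2 lower (2.41% and 1.69%, then 5.01% and 3.13%), and A961 over A964 had 0 higher and 3 lower (2.9% and 2.34%, then 5.46% and 4.58%). A962 over A964 had 2 higher and 7 lower (2.16% and 2.74%, then 4.16% and 5.93%). These 3 comparisons share tags and are not independent of each other. The 7 lower members were Ifi27l2a, Ifi30, Ifi204, Oas1a, Stat2, Zbp1 and Samhd1, among them Zbp1, at 14.2 CPM in A962 and 40.7 in A964 (2.87-fold lower, 1.99 to 4.19). By the log2 ratio with 10 CPM added, Ifi27l2a (-1.26) and Ifi30 (-1.22) were wider than Zbp1 (-1.07). In A961 over A964 Zbp1 was 4.44-fold lower (2.67 to 7.81), from 18 and 96 counts. Of the higher ones, Isg20 was 2.63-fold (1.79 to 3.95), and Gbp2 rested on 21 and 2 counts, a ratio of 7.99 with an interval of 1.95 to 70.3. Ifi27 was 2.30-fold lower in A961 than in A962 and 2.62-fold lower than in A964. Monocyte-gated cells were 45 of 68, 20 of 104 and 36 of 73 in A961, A962 and A964, and Xist and the Y-linked sum differed as given above. Their part in these values was not tested.

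Counts of several classical antiviral members lay in very few cells. Ifit3 was counted in 112 of the 10528 cells, Ifit1 in 122 and Rsad2 in 335, and 13, 27 and 66 cells held 50% of their counts. For Isg15 that took 195 cells of 1384 with a count, for Ifi30 820 of 5780 and for Sp100 1492 of 6662. After thinning, 10254 cells (97.4%) had no count of Ifit1, Ifit3 or Rsad2, genes singled out after their values were seen.

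The 10 cells with the highest thinned sum of these genes were 0.095% of cells and held 0.0386% of counts. They held 39.4% of all Ifit3 counts, 17.2% of Ifit1 and 9.34% of Rsad2. High shares of these genes follow from ranking the cells on them. Of members not used for the ranking, the cells held 5.0% of Gbp2 and 3.89% of Isg15 counts. The 10 cells came from both large tags, 4 from A963 and 6 from A965, and 5 of them were monocyte or nonclassical monocyte gated. Scrublet, a doublet caller, marked 0 of the 10. The highest was an A965 cell in the neutrophil gate with 9068 counts, of which 49 were Ifit3, 40 Rsad2, 25 Gbp2, 17 Isg15, 14 Ifit1 and 10 Usp18. Another, an A963 monocyte, had 46 Isg15, 22 Ifit2 and 18 Ifit3 counts.

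Cells with Ifit3 also carried other members more often. At equal depth, 55.1% of the 78 Ifit3-positive cells had an Isg15 count (43.4 to 66.4%), against 7.06% of the other 10450 (6.58 to 7.57%). For Rsad2 the shares were 26.9% and 1.44%, for Ifit1 23.1% and 0.498%, and for Usp18 25.6% and 2.37%. For the broadly counted members the gap was narrower, 59.0% and 41.7% for Ifi30 and 60.3% and 40.3% for Sp100. Gates were not matched between these cells. For Ifit2 the shares were 30.8% and 7.33%, for Cmpk2 29.5% and 13.2% and for Isg20 28.2% and 12.6%. The promoter windows of Ifit2, Cmpk2, Isg20, Ifi30 and Sp100 held no repeated GAAA motif, and no window was found for Usp18. Whether the motif has a part in these shares was not tested.

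**Figure D4:**
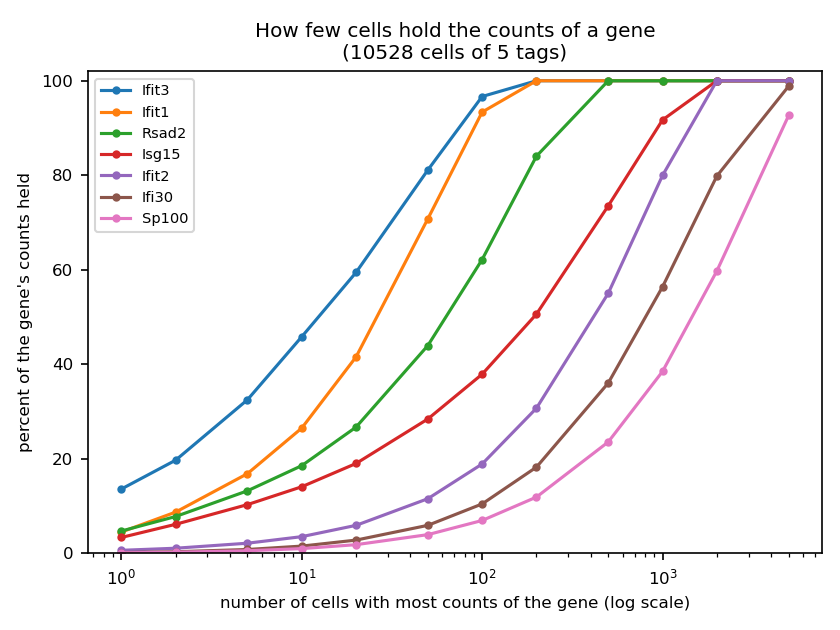
Percent of each gene's counts held by the cells with the most counts of it, against the number of such cells on a log scale, over the 10528 cells of the 5 tags. The top 10 cells of each gene hold 45.8% of Ifit3, 26.5% of Ifit1 and 18.6% of Rsad2 counts, against 1.54% of Ifi30 and 1.01% of Sp100.

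The other genes of the pathway were read from fixed lists. In A965 over A963 over all cells, 0 of 17 receptor and signalling genes, 0 of 6 brakes and 0 of 11 upstream sensing genes passed 1.5-fold either way. Of the other interferon-inducible genes 4 of 52 were higher and 0 lower. Over all genes 0.624% were higher and 0.861% lower, and at 10 CPM or more 1.93% and 2.54%. That limit was reached by 16, 4, 6 and 31 genes of the 4 lists in the same order. In the signalling list the widest log2 ratios were those of Stat3 (46.0 and 28.8 CPM in A965 and A963), the gamma receptor chain Ifngr1 (108 and 82.3) and Irf5 (32.0 and 23.3) upward, and of Irf9 (23.2 and 32.0), Jak2 (14.0 and 15.9) and Irf3 (38.0 and 40.7) downward. Among the 4 brakes at 10 CPM or more, the phosphatase Ptpn6 had the widest log2 ratio, at 221 and 156 CPM. Socs3, an inhibitor of cytokine signalling, was lower than that limit at 1.12 and 0.271 CPM, a 4.14-fold ratio (2.84 to 6.21) that did not pass with 10 CPM added. The adaptors Myd88, at a log2 ratio of 0.46, and Mavs, at -0.29, were the widest each way among the upstream genes.

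In monocyte-gated cells, Irf7, a transcription factor of the interferon response, was higher in A965 at 29.3 CPM against 12.1 (2.42-fold, 2.05 to 2.87), and the kinase Jak2 was lower at 10.7 against 21.6 (2.01-fold lower). They were the 1 higher and 1 lower of the 17 signalling genes, and 0 of the 6 brakes passed. Of the 11 upstream sensing genes 1 was higher, the RNA receptor gene Tlr7, at 8.20 against 1.37 CPM, and 0 lower. Of the other inducible genes 7 of 52 were higher and 0 lower, with the widest in Ifitm1, Ly6a and Ifitm3, which were at 227, 56.7 and 1601 CPM in A965 and at 36.8, 27.05 and 908 CPM in A963. Over all genes in this gate 0.898% were higher and 0.301% lower, and at 10 CPM or more 2.54% and 0.867%. That limit was reached by 16 of the 17 signalling genes, 4 of the 6 brakes, 6 of the 11 upstream genes and 34 of the 52 others. The chemokine Cxcl10 was at 5.89 CPM in A965 and 12.0 in A963. The interferon genes themselves are not analysed here.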

How the data were processed

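Whole-number counts per gene and cell were deposited by the authors for 1 mouse library. Per the submitters' processing notes, the build was GRCm38, and Seurat 4.2.0 and R 4.2.1 are named with no task. The aligner, annotation and counting tool are not given in the sources used here, nor whether counts are of molecules or of reads. Values of 2 were 54.7% as many as values of 1, so intervals may be too narrow. Cell totals ran from 8822 to 140994. Tags were read from cell names. Of 10731 cells, 190 named doublets and 6 others were not used, and 7 with fewer than 500 genes or over 20% mitochondrial counts were removed. The depth was 118142775 counts in A963 and 175876760 in A965, and 1965440, 3100547 and 2360420 in A961, A962 and A964.

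Gates used the mean z-score of log counts per 10000 over fixed markers (127 of 128 in the table), with a best score of at least 0.5 and a margin of 0.2 (stricter: 1.0 and 0.5). A965 was set against A963 in the 8 gates with at least 100 cells of each. Counts were summed and scaled to CPM. Level intervals are exact Poisson, ratios exact conditional binomial and shares Clopper-Pearson. Calls use 1.5-fold with 10 CPM added, whereas printed folds have none added. Cells were thinned to 8800 counts, which left out none. Scrublet (scanpy 1.11.5) marked 226 cells (2.15%), which stayed in. The ratio step was tested on simulated counts. Other tools were Python 3.11.15, numpy 2.4.6, scipy 1.17.1 and pandas 2.3.3.

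The members, lists and gates were chosen with earlier results of these data known. Genes named are members past 1.5-fold over all cells or in a gate, those whose highest gate is at least 3 times the lowest at 50 CPM or more, and the 2 with most counts per role. From the pathway lists, the rule takes the 3 largest log2 ratios each way at 10 CPM or more. Other members named, and which of the listed pathway genes are printed, were chosen after their values were seen. All 43 members were found in GENCODE M21 (GRCm38); 14 overlap a gene on the other strand, Ifi30 among them, and 8 a gene on the same strand. Near-identical copies (Ifit3, Oas1a, the Gbp genes, and Ifi203, Ifi204 and Ifi209) may share counts. Promoters are from RefSeq GRCm38.p6.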

Additional observations from a re-analysis of the deposited data

Results flagged for a closer look

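Zbp1 had opposite directions in 2 gates. In A965 over A963 its log2 ratio with 10 CPM added was -0.62 in lymphoid progenitors, from 8 and 22 counts, and 0.91 in monocyte-gated cells, from 1237 and 314 counts. Each tag has 1 sample per gate, and the difference between the gates was not tested.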

How the results depend on the processing

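Printed counts of members depend most on the CPM added before the ratio. Over all cells, A965 over A963 had 2 members higher and 1 lower. With 1 CPM added these became 7 and 4, with cells thinned to one depth 4 were higher, and with gates weighted 1 and 0. Summed over the 8 gates, 16 higher and 7 lower calls became 42 and 41 with 1 CPM, and the lower calls became 22 after thinning and 16 under stricter gates. Among the small tags, 16 calls became 48 with 1 CPM and 30 after thinning. The ratio of summed members in conventional DC over neutrophils, 6.06, was 6.3 after thinning, 5.84 under stricter gates, 4.01 without marker genes in the total and 7.37 with ribosomal, mitochondrial and CT010467.1 counts left out of the total. The 10 CPM added narrows the ratio most for members at low CPM, and these need not have few counts. Over all cells Zbp1, at 14.5 and 7.42 CPM in A965 and A963, was 1.96-fold (1.81 to 2.12). It had 3591 counts in all tags and did not pass with 10 CPM added. Other causes of the added calls were not tested. Leaving out the highest cell of each tag, an alternative chosen after seeing the data, kept the summed counts within 1.5 times. Median-of-ratios scaling moved log2 ratios by at most 0.10. No member past 1.5-fold reversed under the alternatives run. Depth limits A961, A962 and A964, where members under about 10 CPM rest on few counts. No paired analysis was possible because there was 1 library and no tag had a replicate.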
